A study of Mus musculus with 14 samples.

Results

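The 14 adipose tissue libraries of the series fell into a lymphoid-poor and a lymphoid-rich side by the level of Cd79a (ENSMUSG00000003379), the signalling chain of the B-cell receptor. The sides were chosen by this measured level, in TPM, a length-scaled share of all transcripts: libraries under 10 TPM were taken as lymphoid-poor and libraries over 100 TPM as lymphoid-rich. This gave 3 lymphoid-poor libraries, WT 4, WT 7 and KO 7, and 11 lymphoid-rich libraries, 5 WT and 6 KO. All mice were C57BL/6 at postnatal week 21. WT stands for wild type, and KO for a knockout of Dectin-1, the receptor for fungal beta-glucan that myeloid cells carry and Clec7a encodes, and the labels name no treatment. The study compared WT with KO, and the split runs across that design. The tissue is named only as adipose tissue, without its depot, and whole tissue was used, so each value sums over all the cells of a piece. The knockout allele is not described in the labels, and neither is whether the lymph node was taken or removed.

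White adipose tissue is made of lipid-filled adipocytes held in a matrix with vessels, nerves, progenitors and resident macrophages. Many fat pads also enclose a lymph node. A node packs B cells into follicles and T cells into a neighbouring zone, both laid out by chemokines of fibroblast-like stroma, and naive lymphocytes enter it from the blood through high endothelial venules. Follicles, T zone, venules and sinuses each have genes of their own, which allows a lymphoid tissue to be read part by part.

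Cd79a stood at 0.62 TPM in WT 4, 1.31 TPM in WT 7 and 1.52 TPM in KO 7. In the lymphoid-rich libraries it ranged from 177 TPM (KO 2) through a median of 495 TPM to 720 TPM. The library just inside the lower threshold was therefore KO 7 at 1.52 TPM and the library just outside was KO 2 at 177 TPM, with none between them. Ms4a1, the B-cell surface protein CD20, was at most 0.33 TPM on the poor side and at least 29.8 TPM on the other. Cd3e (ENSMUSG00000032093), a chain of the T-cell receptor complex, read 1.07, 2.69 and 1.99 TPM in WT 4, WT 7 and KO 7 against 32.7 to 110 TPM. The widest gap in each of these genes separated the same 3 libraries. Adipoq (ENSMUSG00000022878), the adipocyte hormone adiponectin, was at 4068, 4037 and 3000 TPM on the poor side and from 683 through 2001 to 3264 TPM on the rich side, so every piece carried adipocyte RNA and the sides overlapped in KO 7. A principal component analysis of the tested genes gave a leading axis with 49.1% of the variance, which placed the 3 lymphoid-poor libraries at 89.8 to 118, above all others (at most 23.8).

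**Figure D1:**
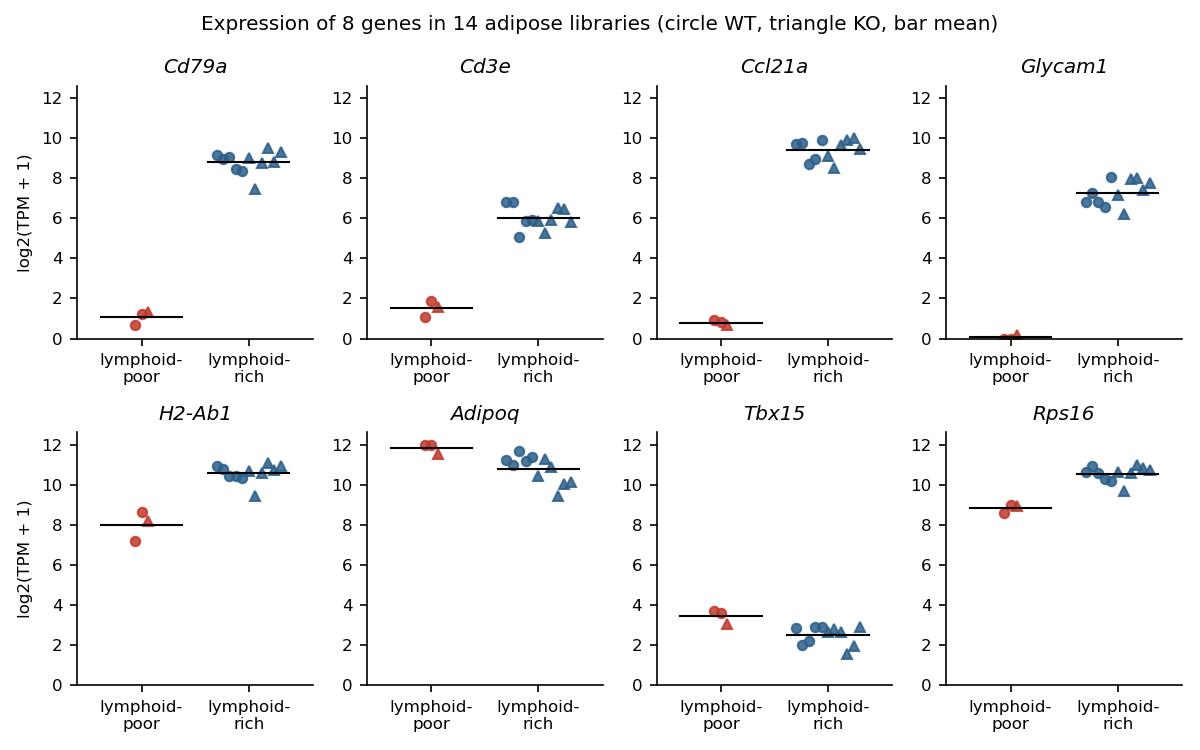
Expression on the log2(TPM + 1) scale of 8 genes in each of the 14 libraries, with lymphoid-poor libraries in red, lymphoid-rich in blue, circles for WT, triangles for KO and a bar at the mean of each side. Cd79a, Cd3e, Ccl21a and Glycam1 leave a wide gap between the sides, H2-Ab1 and Rps16 a narrower one in the same direction, Tbx15 a small one in the other direction, and Adipoq overlaps.

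Because the sides were drawn from these same measurements, differences between them describe the split, and no p-value of the split is given. A gene was called higher or lower in lymphoid-poor libraries where limma's adjusted p, with genotype as a covariate, was under 0.05; this serves as a measure of how steadily a gene follows the split. Of 16546 genes tested besides Cd79a, 3360 (20.3%) were called lower and 1321 (7.98%) higher, 28.3% in all. The sides did not overlap for 2163 genes (13.1%) that were lower and 876 (5.29%) that were higher. The lower calls held their number under other scalings better than the higher ones. Median-ratio scaling gave 3615 lower and 2576 higher, and quantile normalization, which moves the median difference of all genes from -0.09 to 0.14 on the log2 scale, gave 2673 lower and 4151 higher. The share of calls that were higher thus went from 28.2% to 41.6% and 60.8%, while TPM rescaled without mitochondrially encoded genes gave 37.0%. No gene called in one direction was called in the other under any of these scalings. Without KO 7 there were 1946 lower and 154 higher calls, without WT 4 2163 lower, and without WT 7 and WT 5 402 and 751 higher.

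Several facts of the libraries moved with the split, and their part in it was not tested. Lymphoid-poor libraries had 13487 to 14011 genes at 1 TPM or more, lymphoid-rich ones 13979 to 15562. The 10 most abundant genes took 23.6% to 25.9% of TPM against 11.5% to 27.9%. TPM is a share of a fixed total: the lymphoid gene lists, with all antibody and T-cell receptor gene segments (802 genes in all), took 0.169% to 0.377% of it on the poor side and 1.25% to 3.90% on the rich side. In bulk tissue, fewer cells of a type and less RNA per cell cannot be told apart, and this holds for every group below.

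B-cell and T-cell genes had the most negative list medians. All 24 B-cell genes tested and all 29 T-cell genes tested were called lower with no overlap between the sides, with median differences of -5.08 and -4.54 against -0.09 over all genes. Summed over the list, B-cell TPM was 19.5, 38.3 and 34.9 in WT 4, WT 7 and KO 7, or 0.963% to 1.89% of the lymphoid-rich mean, and T-cell TPM was 1.10% to 3.77% of it. Fcmr, the IgM Fc receptor, measured 0.46, 1.31 and 0.68 TPM against 86.5 to 283 TPM (log2 difference -6.85 ± 0.30, SE). Cd79b, the partner chain of Cd79a, measured 1.13, 1.96 and 2.77 TPM against 136 to 521 TPM (-6.74 ± 0.31). Foxp3, the regulatory T-cell factor, was listed at 0, 0 and 0.03 TPM against 2.73 to 9.79 TPM. Cd247, the zeta chain of the T-cell receptor, kept more: 4.44, 15.5 and 9.75 TPM against 28.7 to 84.5 TPM, or 16.6% of the rich mean.

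Antibody genes divided by class. Ighd, the constant region of the IgD that naive B cells carry beside IgM, was at 0.54, 1.82 and 2.03 TPM against 161 to 627 TPM, 0.363% of the rich mean. Ighm, that of IgM, was at 113, 78.9 and 182 TPM against 386 to 1101 TPM, so 14.8% of the rich mean was still read. Igkc, the kappa light chain shared by all classes, lay between, at 17.3, 61.0 and 84.99 TPM against 660 to 3344 TPM (2.87%). Of the 19 genes of the plasma-cell and antibody list 15 were called lower; Xbp1, a secretory factor that many cell types use, was not called (149, 260 and 205 TPM against 73.5 to 220 TPM). Ighg2c, an IgG class, was near 0 on the poor side (at most 0.19 TPM) and from 16.1 to 577 TPM on the rich side, the widest spread among these genes, with WT 9 highest.

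Genes that organise a node were lower to very different degrees, and the list of node stroma and chemokines summed to 24.6% of the rich mean. Ccl21a, a chemokine of T-zone stroma and lymphatic vessels, had the largest difference of all named genes: 0.87, 0.75 and 0.60 TPM against 369 to 1011 TPM (-8.63 ± 0.29), and 0.102% of the rich mean. Ccl19, which binds the same receptor, measured 0.37, 2.14 and 0.52 TPM against 127 to 475 TPM (-7.19 ± 0.32), and the receptor itself, Ccr7, at most 0.44 TPM against at least 28.1 TPM. Ltb, the lymphotoxin chain through which lymphocytes maintain this stroma, was at 0.95, 4.04 and 4.31 TPM against 154 to 518 TPM. Cxcl13, the follicle chemokine, kept 10.6% of the rich mean, with 9.47, 23.3 and 2.94 TPM against 42.5 to 165 TPM. In the list of node stroma and chemokines 11 of 17 genes were called lower and 1 higher, Ltbr, the lymphotoxin receptor (49.7, 55.2 and 57.9 TPM against 22.9 to 50.1 TPM), which is expressed outside lymphoid tissue too.

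Glycam1, a secreted mucin of high endothelial venules, was listed at 0 in WT 4 and WT 7 and at 0.13 TPM in KO 7, against 72.2 to 270 TPM in every lymphoid-rich library. Madcam1, an addressin for lymphocyte homing, was at 0.29, 0.14 and 0 TPM against 1.34 to 6.90 TPM. Altogether 7 of 9 venule genes were called lower. Sinus macrophages went the same way, with 6 of 6 genes called lower: Marco, a scavenger receptor, was at 0.25, 0.43 and 0.38 TPM against 33.1 to 329 TPM, Timd4 at 1.14, 4.23 and 1.10 TPM against 14.5 to 77.6 TPM, and Cd5l at most 0.67 TPM against 1.69 to 54.0 TPM. Germinal-centre genes were different. Only 4 of 8 were called lower (1 under quantile normalization), and the list's summed TPM was 94.4% of the rich mean; Bcl6, its leading factor but also an adipocyte and macrophage gene, was not called (20.8, 33.7 and 22.02 TPM against 4.60 to 33.0 TPM).

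Among other blood-derived cells the difference was uneven. Ccl5, a chemokine of cytotoxic lymphocytes, measured 6.14, 32.8 and 35.03 TPM against 314 to 1397 TPM, and 9 of 12 NK and cytotoxic genes were called lower. Gzma, a granzyme of NK cells, was not called: it was at 1.20 and 3.27 TPM in the WT pair and at 9.16 TPM in KO 7, inside the rich range of 4.62 to 14.2 TPM. Of 14 dendritic-cell genes 12 were called lower. Ccl22, made by migrated dendritic cells, was at most 0.72 TPM against at least 14.6 TPM. Cd209a, found on dendritic cells of many tissues, was not called. It was at 10.02 and 6.46 TPM in WT 7 and KO 7, inside the rich range of 4.07 to 11.8 TPM. In WT 4 it was at 3.72 TPM, just below that range.

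MHC class II genes encode the molecules that present peptides to CD4+ T cells and are read in B cells, dendritic cells and macrophages alike. All 11 tested were called lower without overlap, yet to very different degrees. The presenting chains H2-Aa, H2-Ab1 and H2-Eb1 kept 17.4%, 17.4% and 18.2% of the rich mean, the invariant chain Cd74 13.6% and the peptide-loading chain H2-DMb1 24.5%. H2-Ab1 was at 144, 393 and 288 TPM against 688 to 2149 TPM. H2-Oa and H2-Ob, the DO chains that restrain loading and are best known from B cells, kept 0.733% and 0.592%, H2-DMb2 1.19% and H2-Eb2 0.318%. H2-Ob was at 0.48, 1.51 and 0.47 TPM against 57.3 to 219 TPM, and H2-Eb2 at most 0.08 TPM against 7.24 to 31.8 TPM. Ciita, the coactivator on which class II transcription depends, came between at 0.61, 1.66 and 1.32 TPM against 8.95 to 39.6 TPM (5.18%).

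Class II promoters are textbook examples of a shared arrangement, an X box followed by a Y box, to which a common complex binds and recruits the CIITA protein. The 4 windows below are shown because their genes carry a match to both elements and lie at both ends of that range. They were taken from RefSeq (GRCm38.p6), all on the plus strand of chromosome 17, from 140 to 31 bases before the annotated start and so upstream of the transcript. Capitals mark a core of the X box, searched as AG, any 2 bases, AC, any 2 bases and ATG, and the Y box ATTGG, the reversed CCAAT box.
H2-Eb1: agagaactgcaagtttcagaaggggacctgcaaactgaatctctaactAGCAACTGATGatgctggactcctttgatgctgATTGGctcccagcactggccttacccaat
H2-DMb1: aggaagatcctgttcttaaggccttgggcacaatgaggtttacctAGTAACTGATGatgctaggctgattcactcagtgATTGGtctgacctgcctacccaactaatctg
H2-Ob: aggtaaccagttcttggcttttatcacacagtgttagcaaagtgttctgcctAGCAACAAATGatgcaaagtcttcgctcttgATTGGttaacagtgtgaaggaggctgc
H2-Eb2: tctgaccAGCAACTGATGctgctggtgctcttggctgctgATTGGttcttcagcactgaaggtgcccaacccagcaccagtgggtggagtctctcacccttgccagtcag
The windows lie at chr17:34305727-34305836 for H2-Eb1, chr17:34153051-34153160 for H2-DMb1, chr17:34238765-34238874 for H2-Ob and chr17:34325535-34325644 for H2-Eb2. The elements are 22, 23, 20 and 22 bases apart in that order. Searched on both strands of the 250 bases before each start, with 10 to 30 bases allowed between them, the pair was found in 22 of 32851 promoter entries (0.067%) and in 4 of 9 entries for the 8 class II genes that the table holds. ATTGG alone was found in 33.8% of all entries and the X core alone in 2.60%. H2-Eb1 and H2-DMb1 kept 18.2% and 24.5% of the rich level, H2-Ob and H2-Eb2 0.592% and 0.318%, with a match to both elements in all 4. The matched X cores are not all alike in letters. The core of H2-Eb2 begins 133 bases before the start, against 88 to 95 bases in the others. The part of these elements in the levels was not tested. A match of letters is not a measured binding site.

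**Figure D2:**
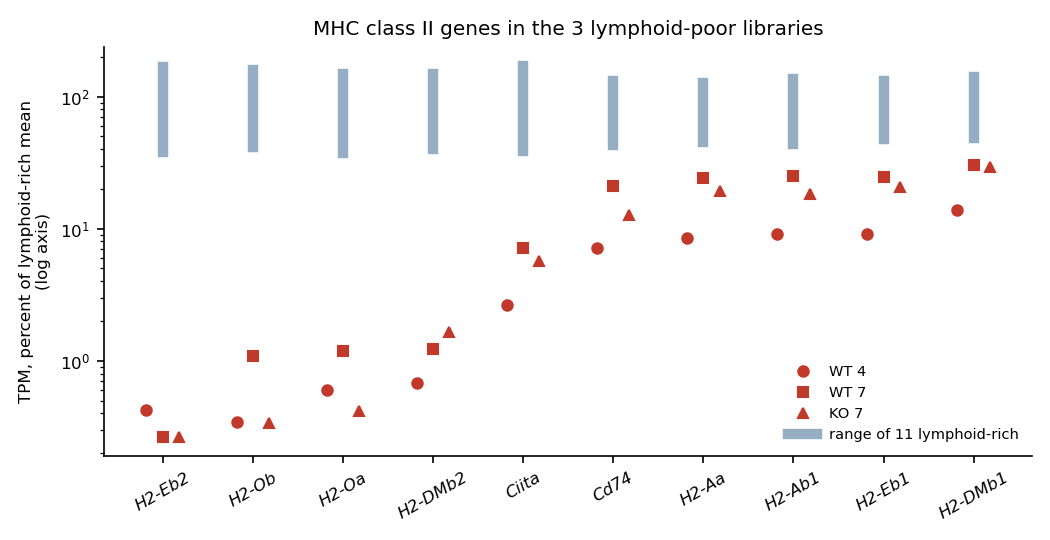
TPM of 10 MHC class II genes in WT 4 (circles), WT 7 (squares) and KO 7 (triangles) as a percentage of the lymphoid-rich mean on a log axis, with the range of the 11 lymphoid-rich libraries as a blue bar. H2-Eb2, H2-Ob, H2-Oa and H2-DMb2 sit near 1% and Cd74, H2-Aa, H2-Ab1, H2-Eb1 and H2-DMb1 near or above 10%, with WT 4 below WT 7 and KO 7 for Ciita and those 5 genes.

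Class I, carried by nearly all cells, moved less. Of 16 genes 10 were called lower and the summed level was 77.8% of the rich mean. H2-Q7, a nonclassical gene, was lower without overlap (51.4, 73.8 and 69.7 TPM against 138 to 375 TPM), while the classical H2-D1 was not called at 2047, 2259 and 1688 TPM against 1582 to 2675 TPM. Interferon-response genes were called lower in 15 of 30 cases, where 20.3% of all genes were, with a median difference of -0.73. Median-ratio scaling gave 12 lower and quantile normalization 11, each with 1 higher. Their summed level was 93.6% of the rich mean, at 1155, 1134 and 1200 TPM against 871 to 1902 TPM.

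Macrophage genes followed the lymphocytes only in part. Of 24 genes 9 were called lower and 1 higher, where 20.3% and 7.98% of all genes were. The median difference was -0.19. The summed level was 53.1% of the rich mean, at 649, 1665 and 785 TPM against 982 to 2795 TPM. Adgre1 (F4/80) and Mrc1 (CD206), markers of tissue macrophages, were not called: Adgre1 gave 3.47, 8.38 and 7.21 TPM against 3 to 12.9 TPM and Mrc1 7.14, 26.4 and 15.7 TPM against 6.55 to 26.8 TPM. Lyz2, lysozyme of myeloid cells, was called lower at 176, 420 and 315 TPM against 386 to 1570 TPM. The single higher gene was F13a1, a factor XIII chain of resident macrophages, at 21.0, 40.6 and 19.4 TPM against 6.28 to 18.1 TPM. In the list of lipid-associated macrophages, 1 of 16 genes was called higher and 1 lower, against the same shares over all genes. Of the 16 differences 12 were positive, and the summed level was 138% of the rich mean. Quantile normalization gave 5 higher and 1 lower. Gpnmb, a glycoprotein of lipid-laden macrophages, was the higher one (15.6, 16.6 and 10.5 TPM against 2.30 to 10.9 TPM). Apoe, the lipid carrier that adipocytes make as well, lay above the rich range in all 3 (9376 to 10710 TPM against 3791 to 9221 TPM) without being called.

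Mast-cell genes fell into a connective-tissue protease group that was lower and a remainder that was not called. Mcpt4 was at 2.71, 1.84 and 4.10 TPM against 7.59 to 67.3 TPM and Tpsb2, a tryptase, at 1.94, 1.11 and 1.99 TPM against 4.12 to 35.02 TPM; 3 of 8 genes were called lower. Of the complement list 6 of 22 genes were called lower and 1 higher, where 20.3% and 7.98% of all genes were. The higher one was Cd59a, the cell-surface inhibitor of the membrane attack complex (106, 104 and 144 TPM against 20.4 to 86.2 TPM).

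Clec7a itself (ENSMUSG00000079293) was among the lower genes, at 4.10, 5.96 and 4.24 TPM in WT 4, WT 7 and KO 7 against 4.02 through 10.3 to 18.9 TPM (-0.96 ± 0.33), with overlapping sides. The library labelled KO lay between both WT libraries, and a gene-level value cannot show which exons were read. Of the 15 genes of Dectin-1 and its pathway 14 were called lower (11 under quantile normalization, with 1 higher). Syk, the kinase that the receptor recruits and that B cells use as well, was at 3.87, 5.96 and 3.29 TPM against 20.3 to 73.2 TPM, and Clec4n (Dectin-2), a related receptor, at 0.46, 0.75 and 0.63 TPM against 3.59 to 50.5 TPM.

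**Figure D3:**
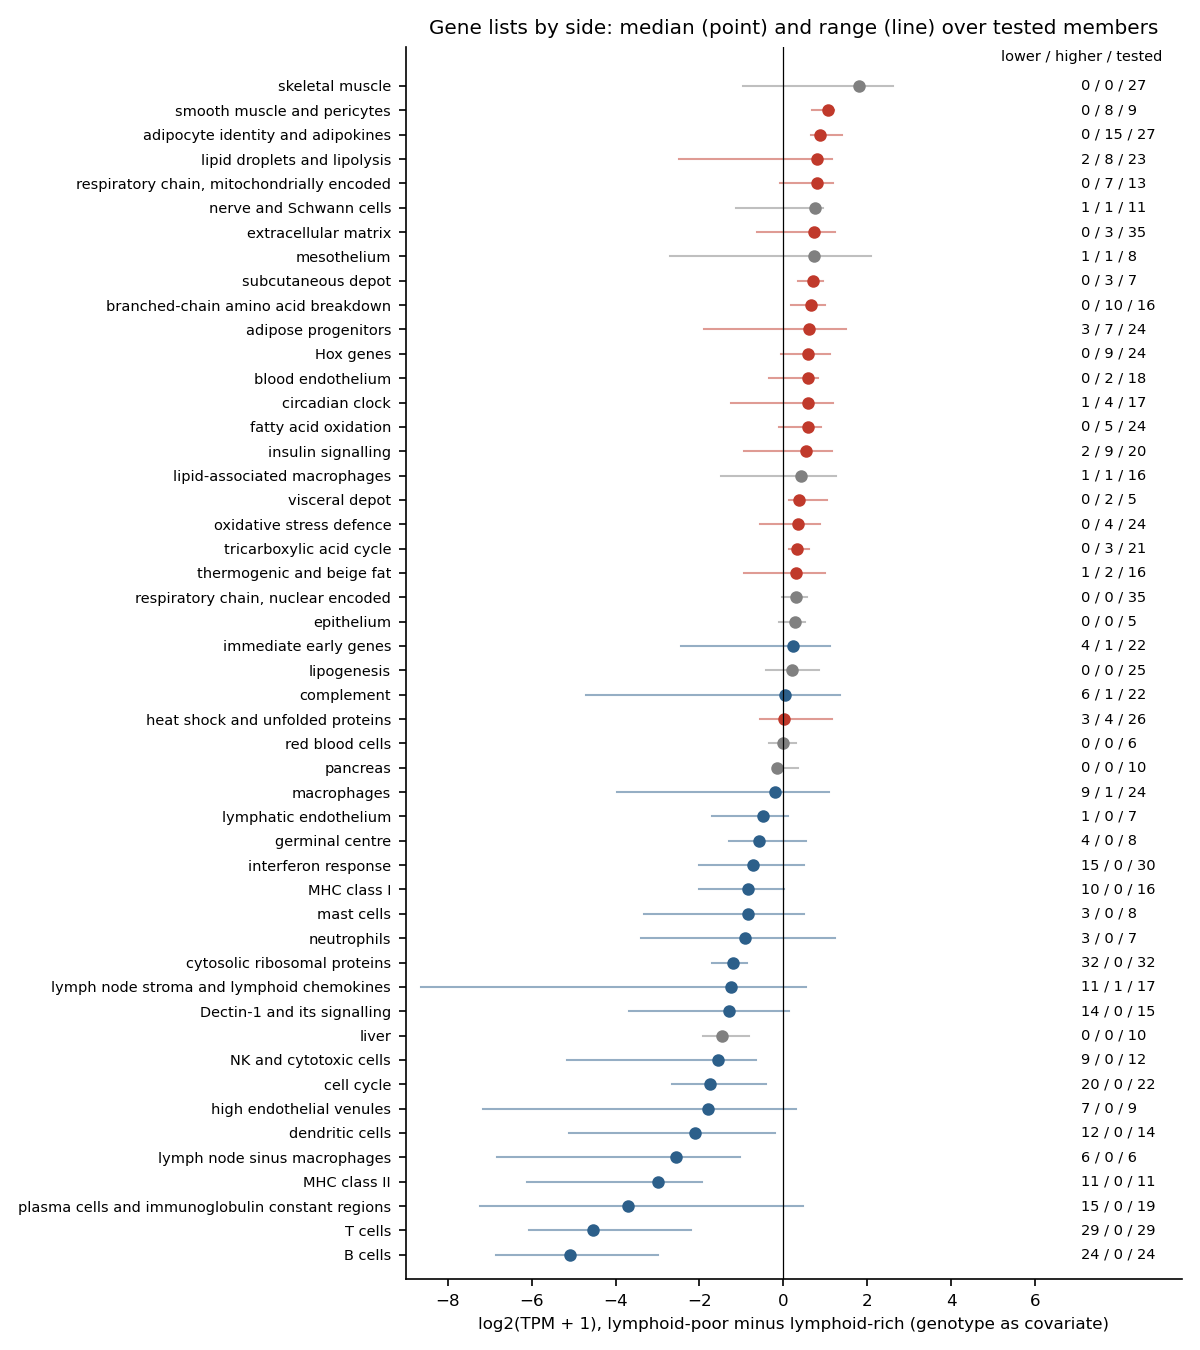
Median (point) and range (line) of the log2 difference between lymphoid-poor and lymphoid-rich libraries over the tested members of each gene list with at least 5 tested, with the number called lower, called higher and tested at the right. Blue marks lists with more lower than higher calls, red the opposite and grey equal numbers; B cells, T cells and MHC class II have every member called lower, and 8 of 9 smooth-muscle, 10 of 16 branched-chain amino acid and 15 of 27 adipocyte genes are called higher.

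On the other side of the split stood the adipocyte. Of 27 genes of adipocyte identity and adipokines 15 were called higher and none lower, with a median of 0.88 and sums of 94262, 89430 and 90479 TPM against 19096 through 49695 to 77304 TPM. Lpl, the lipase that takes up circulating fat, was at 2766, 2632 and 2346 TPM against 469 to 1709 TPM (1.20 ± 0.29). Fabp4, the fatty-acid binding protein, was at 15536, 17270 and 24325 TPM against 4870 to 13901 TPM (0.98 ± 0.29). Pparg, the master factor of fat cells, was at 160, 209 and 302 TPM against 43.6 to 180 TPM, and Lep, leptin, at 198, 330 and 398 TPM against 51.2 to 219 TPM; these were called higher with overlap through WT 4. Under quantile normalization 20 of the 27 were called higher.

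Metabolic groups were not moved alike. Breakdown of branched-chain amino acids had 10 of 16 genes called higher, such as Acadsb (80.3, 97.9 and 113 TPM against 26.9 to 72.5 TPM) and Dbt, a subunit of the dehydrogenase complex (34.9, 44.1 and 51.3 TPM against 14.6 to 33.6 TPM). Lipogenesis had 0 of 25 called by limma in either direction, with 6 higher at an unadjusted p under 0.05 and up to 6 called under the other scalings; Fasn, fatty acid synthase, gave 1764, 840 and 1575 TPM inside the rich range of 388 to 3612 TPM. Lipid droplet and lipolysis genes had 8 of 23 called higher and 2 lower. Adrb3, the adrenergic receptor typical of fat, was not called (180, 297 and 385 TPM against 68.3 to 334 TPM). Faah, the fatty acid amide hydrolase, which is read outside fat as well, was among the lower genes (0.88, 0.14 and 2.42 TPM against 3.44 to 17.8 TPM). Plin4, a droplet coat protein, was at 557, 564 and 590 TPM against 78.0 to 379 TPM.

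In insulin signalling 9 of 20 genes were called higher and 2 lower. Grb14, an inhibitor of the insulin receptor, was higher (46.4, 45.2 and 66.4 TPM against 7.35 to 37.4 TPM). Slc2a1, a glucose transporter of most cells, was lower (5.61, 7.96 and 6.32 TPM against 8.13 to 17.6 TPM), and Slc2a4, the insulin-regulated transporter of fat, lay above the rich range (222, 181 and 176 TPM against 46.0 to 153 TPM) without being called. Fatty acid oxidation had 5 of 24 called higher (13 under median-ratio scaling) and nuclear-encoded respiratory chain genes 0 of 35 (5 at an unadjusted p under 0.05, 7 called under quantile normalization). Mitochondrially encoded genes had 7 of 13 called higher, but none without overlap: mt-Nd4 was at 9719, 8199 and 9041 TPM against 2888 to 11550 TPM. Ucp1, the uncoupling protein of brown fat, was listed at 0, 0 and 0.07 TPM on the poor side and at 0 to 5.16 TPM on the rich side.

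Groups of the supporting tissue differed in how many genes were higher, where 7.98% of all genes were. Of 9 smooth-muscle and pericyte genes 8 were called higher, for example Myh11, the smooth-muscle myosin (16.2, 34.3 and 26.3 TPM against 6.25 to 17.5 TPM). Of 24 progenitor genes 7 were higher and 3 lower. Zfp423, a preadipocyte factor, was higher (19.0, 13.4 and 12.4 TPM against 2.57 to 9.80 TPM) and Dpp4, read in interstitial progenitors and in T cells, lower (3.23, 8.87 and 2.44 TPM against 5.12 to 18.1 TPM). Matrix genes had 3 of 35 called higher, led by Lox, the collagen cross-linking oxidase (18.5, 30.7 and 19.4 TPM against 3.32 to 15.3 TPM), whereas Col1a1 was not called (48.2, 180 and 74.5 TPM against 20.0 to 135 TPM). WT 7 was the highest of the 3 in the summed matrix list, at 253% of the rich mean against 131% in WT 4 and 153% in KO 7. Blood endothelium had 2 of 18 called higher (10 under median-ratio scaling and 11 under quantile normalization); Pecam1, shared by all endothelium and by leukocytes, was not called (37.6, 81.9 and 74.3 TPM against 48.7 to 109 TPM). Lymphatic endothelium had 1 of 7 called lower, and its median of -0.49 became 0.02 under quantile normalization.

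Under the naming rule the largest higher differences took in genes of other kinds. Mest, an imprinted gene tied to adipocyte enlargement, was at 12.5, 13.02 and 15.1 TPM against 0.48 to 8.08 TPM (1.91 ± 0.47), and Plagl1, an imprinted zinc-finger factor, at 24.1, 29.1 and 34.0 TPM against 3.30 to 19.3 TPM (1.51 ± 0.47). Cystm1, a small membrane protein, was at 70.2, 37.5 and 33.3 TPM against 3.71 to 19.0 TPM, and Emp1 at 197, 175 and 167 TPM against 13.9 to 114 TPM. Anxa1, an annexin that dampens inflammation, was at 127, 194 and 250 TPM against 40.1 to 121 TPM. Thbd (thrombomodulin) and Tshr (the thyrotropin receptor, present on fat cells) lay above the rich range as well, at 58.7, 87.0 and 68.7 TPM against 10.8 to 54.3 TPM and at 26.4, 24.6 and 39.5 TPM against 5.20 to 22.95 TPM.

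Since the depot is not in the labels, genes that differ between depots were read in each library. Fat of different pads keeps the positional code of the body region, read in Hox genes and in factors such as Tbx15 and Shox2 under the skin and Wt1 in the belly. Wt1 (at most 0.10 TPM), Tcf21 (at most 0.34 TPM), Bnc1 (at most 0.02 TPM) and the mesothelial Upk3b (at most 0.07 TPM) were at or near 0 in all 14 libraries. Other members of these lists were read. Gata4, also visceral, was at 1.00, 0 and 0 TPM against 0.02 to 1.94 TPM. Of 8 mesothelial genes tested 1 was called higher and 1 lower. Cldn15 lay above the rich range (31.5, 46.5 and 42.0 TPM against 7.11 to 28.4 TPM) without being called. The subcutaneous genes were read in all 14 and were higher on the poor side for 3 of 7: Tbx15 (12.1, 11.2 and 7.34 TPM against 1.95 to 6.54 TPM), Shox2 (7.78, 9.13 and 8.78 TPM against 2.36 to 7.75 TPM) and Hoxc10 (30.7, 30.1 and 23.1 TPM against 8.22 to 21.2 TPM). En1, Hoxc9, Irx3 and Sfrp2 were not called. Emx2 (2.99, 6.15 and 2.31 TPM against 0.56 to 2.16 TPM) and Gpc4 (26.9, 29.5 and 26.5 TPM against 6.11 to 25.4 TPM), 2 of the 5 visceral genes tested, were higher as well. Of 24 Hox genes tested 9 were called higher (14 under median-ratio scaling and 21 under quantile normalization) and none lower, led by Hoxc8 (32.5, 44.8 and 59.2 TPM against 9.44 to 32.1 TPM); Hoxb4 and Hoxd9 showed differences of 0.04 and -0.06. Both depot lists and the Hox list thus leaned the way of the adipocyte list, whose median was 0.88 against 0.71, 0.38 and 0.60 for the subcutaneous, visceral and Hox lists.

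**Figure D4:**
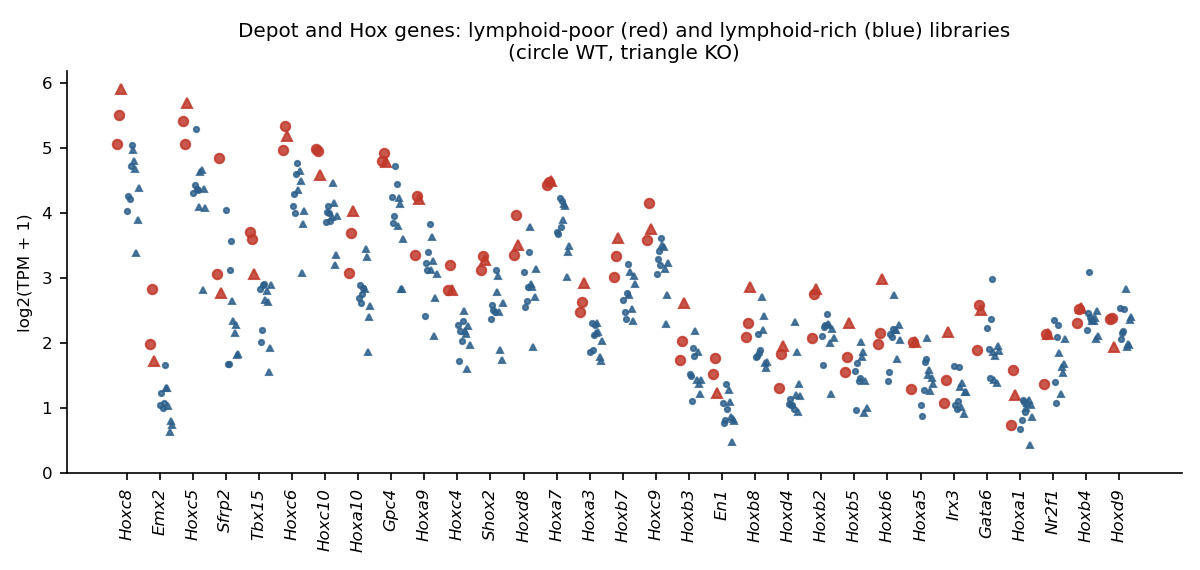
Expression on the log2(TPM + 1) scale of subcutaneous, visceral and Hox genes at a mean of 1 TPM or more, in order of the difference between the sides, with lymphoid-poor libraries in red, lymphoid-rich in blue, circles for WT and triangles for KO. Hoxc8, Emx2, Tbx15, Hoxc6, Hoxc10, Gpc4, Hoxc4, Shox2, Hoxa7 and Hoxa3 lie above all lymphoid-rich libraries in all 3 lymphoid-poor ones, and Hoxb4 and Hoxd9 do not differ by more than 0.06.

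Genes of the ribosome and of cell division made up another lower group. All 32 cytosolic ribosomal protein genes were called lower without overlap, the median difference was -1.20, between -0.92 and -1.24 under every scaling, and the summed level was 42.6% of the rich mean. Rps16, of the small subunit, was at 376, 496 and 493.2 TPM against 810 to 1987 TPM (-1.71 ± 0.24), and Rpl8, of the large one, at 767, 1040 and 935 TPM against 1360 to 2702 TPM (-1.22 ± 0.20). Of 22 cell-cycle genes 20 were called lower, such as Top2a, a topoisomerase of dividing cells (0.98, 1.16 and 0.56 TPM against 3.71 to 23.8 TPM). Immediate early genes, which respond to handling, had 4 of 22 lower and 1 higher, close to the shares over all genes (20.3% and 7.98%). The counts were 6 and 9 under median-ratio scaling and 5 and 11 under quantile normalization. Ier5 was lower (4.25, 8.86 and 8.16 TPM against 21.3 to 61.8 TPM) and Fos was not called (16.8, 41.0 and 76.8 TPM against 7.56 to 47.5 TPM). Among 17 clock genes 4 were higher and 1 lower. Per3 and Tef, output genes of the clock in the same phase group, were higher (19.6, 26.3 and 23.8 TPM against 6.48 to 16.2 TPM, and 87.9, 94.8 and 97.1 TPM against 33.7 to 75.2 TPM), and Arntl, their activator, was lower (0.81, 0.79 and 1.38 TPM against 1.13 to 7.00 TPM). The time of day of sampling is not in the labels, so its part in these was not tested.

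**Figure D5:**
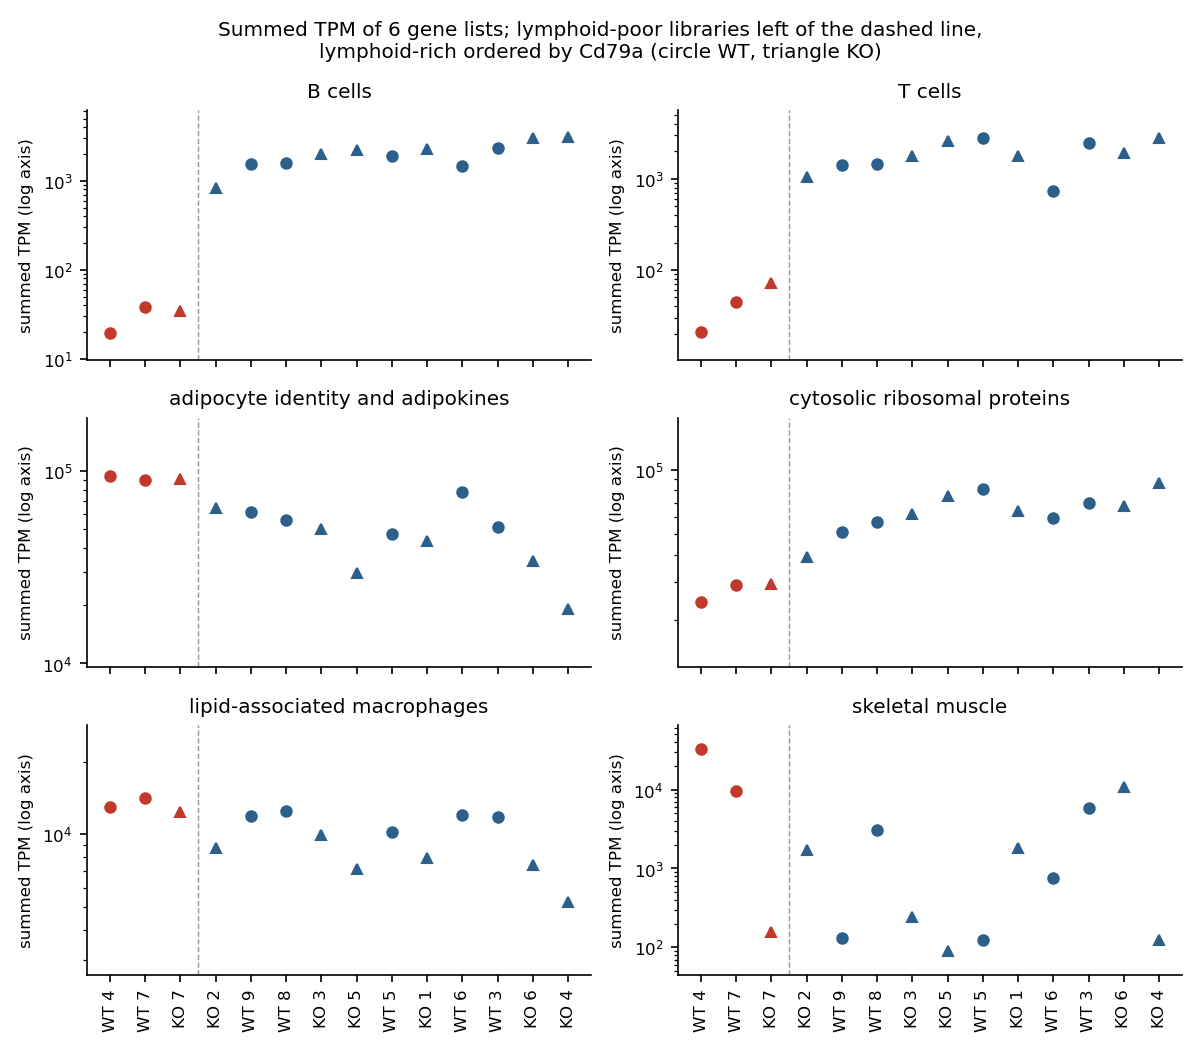
Summed TPM (log axis) of 6 gene lists in each library, with the 3 lymphoid-poor libraries left of the dashed line and the 11 lymphoid-rich ones ordered by Cd79a from KO 2 to KO 4. B-cell, T-cell and ribosomal sums are lower and adipocyte sums higher in all 3 lymphoid-poor libraries than in every lymphoid-rich one, while skeletal-muscle sums run from 157 to 32683 TPM among the 3.

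Of tissue that may be cut along with fat, no muscle, liver, pancreas or red-cell gene was called, though muscle leaned higher through WT 4 and WT 7. The median muscle difference was 1.80, with 24 of 27 genes positive and a mean sum on the poor side at 634% of the rich mean. Skeletal-muscle genes summed to 32683 TPM in WT 4, 9663 TPM in WT 7 and 157 TPM in KO 7, against 89.5 through 758 to 10648 TPM, and 0 of 27 were called by limma (1 lower at an unadjusted p under 0.05). Mylpf, a fast-muscle light chain, was at 2153, 624 and 9.46 TPM in the same 3, so WT 4 and WT 7 were high and KO 7 was not. Adding a muscle score to the fit left 2860 lower and 719 higher calls, from 3360 and 1321. Liver, pancreas and red-cell lists had no gene called, and Alb (57.7, 72.2 and 26.3 TPM against 8.88 to 2153 TPM), Prss2 (17.0, 23.5 and 15.1 TPM against 14.2 to 45.8 TPM) and Hba-a1 (536, 654 and 533 TPM against 240 to 1779 TPM) lay within the rich ranges.

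The 3 lymphoid-poor libraries shared the low lymphoid levels and differed in much else. KO 7 carried epithelial keratins: Krt19 (ENSMUSG00000020911) was at 25.9 TPM against 1.77 and 1.48 TPM in WT 4 and WT 7 and at most 1.24 TPM on the rich side, Krt18 at 30.6 TPM against 0.84 and 0.60 TPM, and Epcam at 16.1 TPM against 0.96 and 0.04 TPM. Among lymphoid-rich libraries WT 8 came nearest, with Krt18 at 7.63 TPM and Epcam at 12.9 TPM. Of 16546 genes, Krt19 was the only one (0.00604%) called for a split that differed between the genotype labels (limma interaction; difference of log2 differences, KO minus WT, 3.56), and without WT 4 or without WT 7 no gene was called with a positive difference. This value is the level of 1 library, KO 7, and that library and the genotype cannot be told apart. WT 4 had the lowest summed B-cell, T-cell, NK, macrophage and class II levels of the 3.

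The split was also described within each genotype. The WT and KO fits share no library, but both take their sides from Cd79a, which fixes in part how far lymphoid genes agree, and the KO fit has KO 7 alone on the poor side. Among WT libraries alone 1522 genes (9.20%) were called lower and 187 (1.13%) higher, and among KO libraries alone 861 (5.20%) and 60 (0.363%). Lower calls in both numbered 755, or 49.6% of the WT calls and 87.7% of the KO calls, and 861 of the 861 KO lower calls had a negative difference in WT, where 59.4% of all genes did. No gene was called higher in both, from lists of 187 and 60. Of the 187 genes higher in WT, 126 (67.4%) had a positive difference in KO, where 47.9% of all genes did. B-cell genes had medians of -5.03 in WT and -5.12 in KO, T-cell genes -4.62 and -4.13, ribosomal genes -1.21 and -1.13 and adipocyte genes 0.70 and 1.30. Skeletal muscle had 3.83 and -1.90.

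Gradation among the lymphoid-rich libraries was described against Cd79a as well. This uses the gene that drew the sides, in libraries it selected, so that B-cell genes tracking it restates the rule, and it lends no support to the split. Within the 11 libraries, log2(TPM + 1) was regressed on that of Cd79a with genotype as a covariate. Of 16546 genes 64 (0.387%) were called with a positive slope and 1 (0.00604%) with a negative slope by limma's adjusted p. Among B-cell genes 9 of 24 were called, with a median slope of 0.82, and among class II genes 7 of 11, with a median of 0.77. T-cell genes had a median slope of 0.54 with 0 of 29 called by limma (5 positive at an unadjusted p under 0.05); Ccl21a and Glycam1 had slopes of 0.44 and 0.55. Ribosomal genes had a median of 0.48 with 2 of 32 called. Adipocyte genes had a median of -0.62, with none of 27 called by limma (20 negative at an unadjusted p under 0.05), and Adipoq a slope of -0.64; over all genes the median was 0.08.

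The slope calls rest on KO 2, the lymphoid-rich library lowest in Cd79a. Without it limma called 0 genes in either direction (250 positive and 808 negative at an unadjusted p under 0.05), and B-cell and class II medians were 0.46 and 0.51. Without WT 6, 2435 genes were positive and 319 negative.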

How the data were processed

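RNA from adipose tissue of 14 mice was sequenced with an Illumina TruSeq preparation from total RNA, per the labels' protocols. The authors deposited 1 table of TPM values for the series; Bowtie 0.12.2 and the mouse builds mm8 and mm9 are named in the submitters' processing notes without a role, and the program behind the TPM values is not given in the sources used here. Read numbers are not kept in TPM, so depth is unknown and error is the spread between libraries; nothing but the library labels says that libraries are separate mice. Rows were summed by gene name (54955 names from 56552 rows).

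Genes that reached 1 TPM in 3 libraries were fitted as log2(TPM + 1), which understates low genes, by limma-trend with a robust prior (limma 3.58.1, R 4.3.3), on genotype and side, with Benjamini-Hochberg adjustment. Differences are lymphoid-poor minus lymphoid-rich, ± SE; levels are in TPM, the 3 poor libraries in the order WT 4, WT 7, KO 7, then the lowest to the highest lymphoid-rich library. Where the named lists overlap, genes count in each.

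The members, lists and tests were chosen with earlier results of these data known. Named genes were Cd79a, Cd3e, Adipoq and Clec7a, the 15 largest differences each way among called genes without overlap at 5 TPM or more, up to 4 genes of each list with the smallest p, and depot and Hox genes at 1 TPM or more; not all are printed, and some items are not reported here. Adgre1, Adrb3, Alb, Bcl6, Cd209a, Cd247, Cd74, Ciita, Clec4n, Col1a1, Cxcl13, Dpp4, Epcam, F13a1, Fabp4, Fasn, Fos, Foxp3, Gzma, H2-Aa, H2-Ab1, H2-D1, H2-DMb1, H2-Eb1, Hba-a1, Ighm, Igkc, Lep, Ltbr, Mrc1, Ms4a1, Mylpf, Pecam1, Plin4, Slc2a4, Top2a, Ucp1 and Xbp1 were chosen after their values were seen. Promoter sequences are from RefSeq. Fits were tested on simulated data. The alternatives changed the pseudocount, the low-value filter, the scaling, the summing of rows, the covariates or the library weights, left out libraries or added a replicate block.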

Additional observations from a re-analysis of the deposited data

Results flagged for a closer look

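Within lymphoid-rich libraries of 1 genotype, single libraries stood apart from the rest by Dixon's criterion in 25 of 312 groups examined. Chance gives about 1 in 20 for independent, normally spread values. TPM was used here without logs and the groups share genes, so that rate need not hold. KO 2 was the lowest of the 6 KO libraries in the summed TPM of the plasma-cell and antibody list (1852) and the germinal-centre list (40.6), and in Igkc (660 TPM), H2-Aa (723 TPM), H2-Q7 (138 TPM), Pecam1 (60.7 TPM), Slc2a1 (8.13 TPM) and Faah (6.33 TPM). KO 6 was the highest KO library in skeletal-muscle (10650 summed TPM) and liver genes (2517 summed TPM), in Mylpf (716 TPM) and in Alb (879 TPM). WT 8 was the highest of the 5 WT libraries in liver genes (5679 summed TPM), Alb (2153 TPM), epithelial genes (31.98 summed TPM), Krt18 (7.63 TPM), Epcam (12.9 TPM) and the pancreatic Prss2 (45.8 TPM). WT 6 was highest in the complement list (39380 summed TPM) and in oxidative stress defence (11110 summed TPM). WT 5 was lowest in lipid-associated macrophage genes (10230 summed TPM). WT 9 was highest in Ighg2c (577 TPM) and Shox2 (7.75 TPM). KO 3 was highest in Ighg2c among KO libraries (232 TPM) and KO 4 in Ucp1 (5.16 TPM).

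The split of Krt19 differed between the genotype labels by 3.56 on the log2 scale, through its level in KO 7, the only lymphoid-poor KO library.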

How the results depend on the processing

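Of 81 named genes called in the comparison of the sides, none changed sign in 2477 differences under the alternatives. Many of these were named for large differences or small p in these same data, which in part fixes this count. Where the sides do not overlap, leaving out libraries cannot reverse a sign. Of 21 that were not called, 11 changed sign in 36 of 645 differences, and Epcam turned positive (2.35) and was called in KO libraries alone. Over all 102, 255 differences lost the call and 19 gained one. Of 889 list medians, 8 moved by more than the spread between libraries. Under quantile normalization these were NK and cytotoxic cells (-1.12), high endothelial venules (-1.34), germinal centre (-0.22), thermogenic fat (0.59) and visceral depot (0.69). With each library left out in turn, the antibody list ranged from -4.35 (without KO 7) to -3.41, mesothelium from -0.021 (without KO 7) to 0.99 and epithelium from -0.52 (without KO 7) to 0.54. Higher calls numbered 779 with no filter, 2576 with median-ratio scaling, 4151 with quantile normalization, 719 with a muscle covariate and 2938 with library weights, and lower calls 5091 with library weights; WT libraries alone gave 187 higher and 1522 lower, KO libraries alone 60 and 861. Leaving out single libraries gave 154 (without KO 7) to 1615 higher calls and 1946 (without KO 7) to 4595 lower calls. The causes were not tested, beside fewer libraries where some were left out.

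Positive slopes on Cd79a numbered 36 with a pseudocount of 5, 31 with no filter, 140 with median-ratio scaling, 183 with quantile normalization and 0 (without KO 2) to 2435 (without WT 6) with a library left out. Negative slopes numbered 2 with a pseudocount of 0.1, with a pseudocount of 5, with a filter of 1 TPM in 7 libraries and with ordinary empirical Bayes, which gave 2 each, 3 with no filter, 49 with median-ratio scaling, 100 with quantile normalization and 0 to 319 with a library left out. The interaction gave 0 positive calls with a pseudocount of 0.1 and 0 with the filter in 7 libraries, 11 with a pseudocount of 5, 327 with no filter, 2 with quantile normalization and 0 to 6 with a library left out, and 1 negative call with a pseudocount of 5, 8 with no filter and 0 to 1 with a library left out.

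With the replicate block over the 10 libraries that share numbers, 100 genes were called higher and 448 lower; the same 10 without it, an alternative chosen after seeing the data, gave 1730 and 3342. The numbers were not taken as pairs: same-numbered libraries deviated from their genotype means with correlations from -0.60 to 0.76, and 4 of 10 correlated best with their own number. Scalings that drop lymphoid or mitochondrial genes were not run for the lists they drop. TPM keeps no depth, so low genes carry no counting interval.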
